A study of Mus musculus with 20 samples.

Results

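Here 8 transcription regulators used as markers of the layers of excitatory neurons were measured in bulk RNA of mouse cerebral cortex: Cux1 and Cux2 for the upper layers, Rorb for layer 4, Fezf2 and Bcl11b for layer 5, and Foxp2, Tle4 and Tbr1 for layer 6. They were taken by gene symbol from the table of counts, in which each had 1 row, giving 8 genes of 43346, and all 8 were among the 19623 genes tested. All mice carried the 5xFAD transgenes, human genes with familial Alzheimer's disease mutations that are driven by a neuronal promoter and lead to amyloid plaques, and all came from crosses that gave male littermates. The groups were Abca7 knockin (KI, the p.A693S change in the mouse gene) at 3 months, control with wild-type Abca7 at 3 months, KI at 10 months and control at 10 months, with 5 libraries in each. The KI label does not say whether an animal carried 1 or 2 knockin alleles, nor whether libraries of a group are different animals, so the spread that p-values rest on may be technical. Since no group lacked the 5xFAD transgenes, age and the growth of plaques cannot be told apart. The study asks how the Abca7 change bears on amyloid pathology and the immune response of the brain, and the comparisons here are KI against control at each age and 10 against 3 months in each genotype.

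The neocortex is built of layers of excitatory neurons that differ in where their axons go. Upper layer neurons connect cortical areas with each other, layer 4 neurons receive input from the thalamus, layer 5 sends axons to the brainstem and spinal cord, and layer 6 projects to the thalamus. The regulators named here help to set up these identities during development and most stay expressed in the adult, which is why they serve as layer markers. Several are also used outside the cortex or outside its excitatory neurons: Bcl11b and Foxp2 in projection neurons of the striatum, Bcl11b in some interneurons, and Rorb in the thalamus. Bulk RNA cannot tell fewer cells of a type from less RNA per cell.

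Library totals ran from 42896149 to 57447015 counts, and every member had at least 546 counts in every library, which makes counting noise minor here. Values are given as CPM, counts divided by the library total after TMM scaling. Slc17a7, which encodes the vesicular glutamate transporter of cortical excitatory neurons, ran from 870 to 1408 CPM over the 20 libraries. A single library went against its label: the library labelled KI replicate 5 at 10 months had an Xist count of 54206, against 218 or fewer in the other libraries, and a count of 1 for Y-linked Ddx3y, against 2382 or more, while all animals are labelled male. That library and KI replicate 3 at 3 months also had the 2 lowest scores of a list of 15 excitatory neuron genes, so the member results that moved without them are given both ways. Thalamic markers stood apart too: their summed level ran from 286 to 489 CPM in KI at 3 months, 227 to 382 CPM in control at 3 months, 219 to 236 CPM in KI at 10 months and 209 to 231 CPM in control at 10 months.

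The stretches of DNA before the annotated starts of Cux2, Fezf2 and Rorb are shown because these genes take part in the strongest relations between members described further on. They are from RefSeq (GRCm38.p6), whose promoter table matched 7 of the 8 members (all but Foxp2) with 10 windows of 250 bases, and each is given 5′ to 3′ on the minus strand, on which all 3 genes lie. Exonic bases of GENCODE vM21 were left out of each window, which leaves 184 bases at an internal start of Cux2, 156 at Fezf2 and 250 at the outermost start of Rorb. Capitals mark ATCGAT, a core recognised by CUX proteins, which only the first of the 3 holds.
Cux2, chr5:122047892-122048075: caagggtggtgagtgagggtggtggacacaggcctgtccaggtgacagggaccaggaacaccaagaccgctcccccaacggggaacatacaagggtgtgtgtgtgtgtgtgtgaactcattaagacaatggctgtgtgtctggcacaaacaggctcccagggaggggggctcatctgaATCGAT
Fezf2, chr14:12345960-12346115: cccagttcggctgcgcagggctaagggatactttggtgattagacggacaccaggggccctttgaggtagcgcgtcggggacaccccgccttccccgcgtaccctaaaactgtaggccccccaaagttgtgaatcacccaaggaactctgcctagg
Rorb, chr19:19111197-19111446: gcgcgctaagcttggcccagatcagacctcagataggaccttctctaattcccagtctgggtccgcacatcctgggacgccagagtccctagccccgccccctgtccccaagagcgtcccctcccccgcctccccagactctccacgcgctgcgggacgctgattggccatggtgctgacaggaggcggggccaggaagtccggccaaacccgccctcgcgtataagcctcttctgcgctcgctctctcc
Of the 10 full windows, this Cux2 window alone held ATCGAT, on either strand, while 0.728% of all 32851 windows of the same length held it. The homeodomain core TAATTA occurred 2 times in the Tbr1 window and in no other member window, against 4.84% of all windows with at least 1. All 250 bases of that Tbr1 window are exonic in GENCODE vM21. The ROR half-site AGGTCA (14.0% of all windows) and the T-box half-site AGGTGT (11.8%) were in none of the 10. Matches were sought on both strands, and no motif overlapped another in a member window. These are matches of letters, and no binding was measured.

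Per kilobase of the length given in the table, the 8 markers spanned a wide range of level. Averaged over the 20 libraries, Tbr1 was highest at 23.1 ± 1.91 CPM per kilobase (SD, n = 20), followed by Tle4 at 14.1 ± 0.815, Cux2 at 13.3 ± 1.99, Fezf2 at 10.5 ± 1.54, Bcl11b at 7.63 ± 0.918, Cux1 at 5.24 ± 0.482, Rorb at 4.53 ± 0.548 and Foxp2 at 1.32 ± 0.208 CPM per kilobase. The order is not by layer: a layer 6 gene stands at the top and another at the bottom. Tbr1 exceeded Tle4, and Rorb exceeded Foxp2, with no overlap between libraries. Tle4 and Cux2 were not separated, since Tle4 was above Cux2 in 13 of 20 libraries. The other neighbours kept their order in 18 to 20 of the 20 libraries although their ranges over libraries overlapped. By CPM, which is not corrected for length, the members lay between percentile 55.2 (Foxp2) and percentile 90.4 (Tbr1) of the genes tested. A pseudogene, AC113302.1, lies inside Cux2 and was counted separately with 10708 counts over the 20 libraries, which is 9.92% of the Cux2 total, so some reads of Cux2 may have gone to it.

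**Figure D1:**
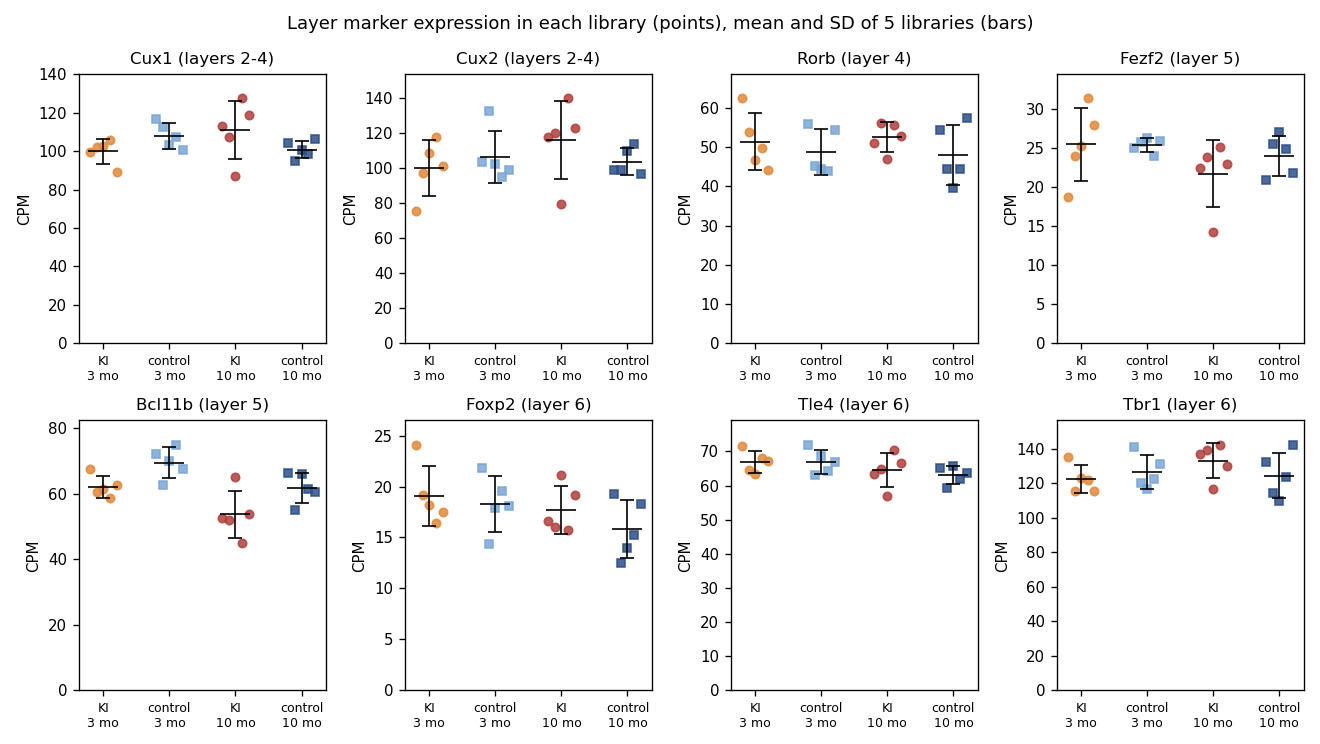
Expression of the 8 layer markers in CPM (y axis, from 0) in each library (points), grouped on the x axis as KI and control at 3 months and KI and control at 10 months, with the mean and SD of 5 libraries as black bars. The groups overlap in every panel, and at 10 months 1 KI library sits below the other 4 for Cux1, Cux2 and Fezf2.

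No layer marker passed the test between KI and control at either age. With edgeR's quasi-likelihood test, adjusted by Benjamini-Hochberg over all genes, 0 of 8 members were called at 3 months, where 0.0255% of all genes tested were called (0.0102% higher and 0.0153% lower), and 0 had an unadjusted p under 0.05. At 10 months 0 of 8 were called, against 0.0612% of all genes (0.0357% higher and 0.0255% lower), and 1 (Bcl11b) had an unadjusted p under 0.05. Over all 19623 genes tested, 745 had such an unadjusted p at 3 months and 1543 at 10 months. DESeq2 and limma-voom called none at either age. The log2 fold changes, KI over control, lay between −0.16 and 0.074 at 3 months with a median of −0.023 (4 of 8 above 0), and between −0.20 and 0.16 at 10 months with a median of 0.11 (6 of 8 above 0), beside medians of 0.0054 and 0.00018 over all genes. KI and control libraries overlapped for every member at both ages, while 0.657% and 1.49% of all genes did not overlap at 3 and at 10 months.

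No layer marker passed the test for age with all libraries either. In KI, 10 against 3 months, 0 of 8 members were called by edgeR, against 8.06% of all genes (5.66% higher and 2.41% lower), and 1 (Bcl11b) had an unadjusted p under 0.05. Of all 19623 genes tested, 4165 had such an unadjusted p in KI. There DESeq2 called 0 members and limma-voom 2 (Cux1 and Bcl11b), beside 3027 of all genes by limma-voom. In control, 0 of 8 were called by edgeR, against 4.07% of all genes (3.72% higher and 0.357% lower), and 1 (Bcl11b) had an unadjusted p under 0.05. Of all 19623 genes tested, 2662 had such an unadjusted p in control. There DESeq2 called 0 members and limma-voom 1 (Bcl11b), beside 1254 of all genes by limma-voom. In KI 4 of 8 log2 fold changes were below 0, with a median of −0.011, while in control all 8 were, with a median of −0.083, although Cux2, Rorb and Tbr1 were above 0 in control when libraries were scaled to the 15 excitatory neuron genes. Those medians stand beside −0.0031 in KI and −0.0034 in control over all genes. No member's groups were separated by age, against 7.17% of all genes in KI and 5.69% in control. The genotype by age interaction, the age change in KI minus that in control, was called for 0 of 8 members and for 0% of all genes by edgeR. A single member (Cux1) had an unadjusted p under 0.05 there, beside 883 of all 19623 genes tested. Neither DESeq2 nor limma-voom called a member for the interaction. Without the library labelled KI replicate 5 at 10 months, 2 of 8 members were called by edgeR for age in KI, Cux1 higher and Bcl11b lower, beside 1551 of all genes, and 0 members in the other comparisons.

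**Figure D2:**
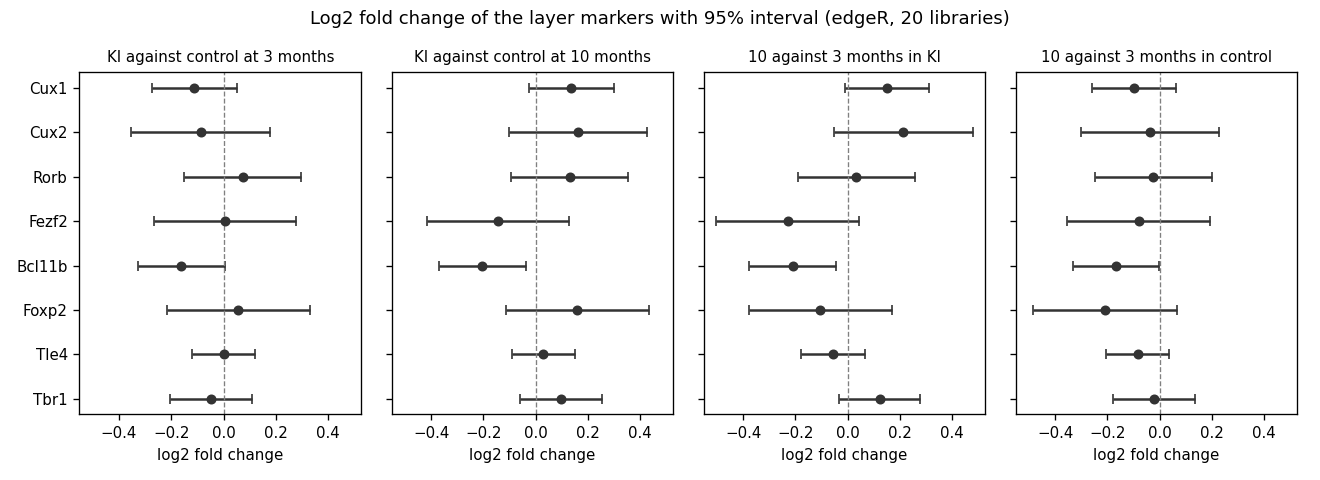
Log2 fold change (x axis) of each layer marker (rows) with its 95% interval from edgeR, in 4 comparisons (panels), with a dashed line at 0. Most intervals include 0; those of Bcl11b lie below 0 at 10 months and for age in KI and in control, without passing the adjustment over all genes.

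Cux1 and Cux2, homeodomain transcription factors of upper layer neurons, were higher in 4 of 5 KI than in all control libraries at 10 months. Cux1 (ENSMUSG00000029705, chr5:136248135-136567490, mm10) had 113, 108, 87.3, 128 and 119 CPM in KI libraries at 10 months, against 104, 94.8, 100.7, 98.3 and 106 CPM in control. Cux2 (ENSMUSG00000042589, chr5:121858387-122050102) had 118, 120.2, 79.7, 140.1 and 123 CPM in KI, against 99.0, 99.2, 109.8, 114 and 96.7 CPM in control. For both genes the third KI value, from the library labelled replicate 5, was below all 5 controls and the other 4 were above them. With all libraries the log2 fold change was 0.14 ± 0.078 (SE) for Cux1 (adjusted p = 0.700) and 0.16 ± 0.13 for Cux2 (adjusted p = 0.805). Without that library it was 0.21 ± 0.063 for Cux1 (adjusted p = 0.276) and 0.27 ± 0.11 for Cux2 (adjusted p = 0.424). Without KI replicate 6 at 10 months, the highest KI library for both genes, it was 0.082 for Cux1 and 0.088 for Cux2.

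At 3 months the reported values of both upper layer genes were below 0, but that of Cux2 changed sign in 6 of 34 other settings. Cux1 had 99.4, 102, 103, 106 and 89.1 CPM in KI, against 117, 112, 103, 107 and 100.4 CPM in control. Cux2 had 75.5, 97.1, 109, 118 and 101.5 CPM in KI, against 103, 132, 102, 95.1 and 99.0 CPM in control. The groups overlapped for both, with 2 KI libraries below all controls for Cux1 and 1 for Cux2, and the log2 fold changes were −0.11 ± 0.078 (adjusted p = 1.00) and −0.087 ± 0.13 (adjusted p = 1.00). The lowest Cux2 value at 3 months was in KI replicate 3 and the highest in control replicate 7. The Cux2 difference was 0.026 with limma-voom, 0.017 ± 0.15 with the thalamic covariate, 0.0086 ± 0.12 without control replicate 7 and 0.00047 ± 0.087 without both KI libraries of low excitatory neuron score. The interaction for Cux1 was 0.25 ± 0.11 on the log2 scale (95% interval 0.020 to 0.48, unadjusted p = 0.0347, adjusted p = 0.999). For Cux2 the same contrast was 0.25 ± 0.18, with an interval of −0.12 to 0.63.

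With age, Cux1 differed by 0.15 ± 0.078 on the log2 scale in KI (adjusted p = 0.278) and by −0.098 ± 0.078 in control (adjusted p = 0.701). Without the library labelled KI replicate 5 at 10 months, Cux1 was higher at 10 than at 3 months in KI, with a log2 fold change of 0.23 ± 0.063 and an adjusted p of 0.0302 by edgeR, and its interaction was 0.32 ± 0.086 (adjusted p = 0.422). Without KI replicate 6 at 10 months, the Cux1 values were 0.095 for age in KI and 0.19 for the interaction. Cux2 differed with age by 0.21 ± 0.13 in KI and by −0.037 ± 0.13 in control, and neither passed the test (adjusted p = 0.360 and 0.961). Without the library labelled KI replicate 5 at 10 months, the Cux2 value for age in KI was 0.32 ± 0.11 (adjusted p = 0.0762). Without KI replicate 3 at 3 months it was 0.13. With the score of thalamic markers as a covariate, the values for age in KI came close to 0, at 0.0093 ± 0.13 for Cux1 (adjusted p = 0.992) and 0.022 ± 0.21 for Cux2 (adjusted p = 0.989). That score did not overlap between KI libraries of 10 months (−0.607 to −0.360) and of 3 months (0.328 to 1.34), so age and thalamic RNA cannot be told apart there.

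Rorb (ENSMUSG00000036192, chr19:18930605-19111196), a nuclear receptor of the ROR family that marks layer 4, had intervals that included 0 in all comparisons. It ranged over 44.1 to 62.5 CPM in KI and 43.9 to 56.0 CPM in control at 3 months, and over 47.0 to 56.2 CPM in KI and 39.5 to 57.5 CPM in control at 10 months. The log2 fold change of KI over control was 0.074 ± 0.11 at 3 months (95% interval −0.15 to 0.30) and 0.13 ± 0.11 at 10 months (95% interval −0.092 to 0.36). For age it was 0.034 ± 0.11 in KI and −0.024 ± 0.11 in control. The highest Rorb value of all was in KI replicate 3 at 3 months, the library with the lowest Cux2, and without it the difference at 3 months was −0.0033 ± 0.10.

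Fezf2 (ENSMUSG00000021743, chr14:12341892-12345865), a zinc finger factor needed for neurons that project to the spinal cord and brainstem, had nearly equal means in KI and control at 3 months. It had 18.8, 24.1, 25.3, 31.4 and 27.99 CPM in KI at 3 months, against 25.1, 25.8, 26.4, 24.1 and 25.9 CPM in control. The KI libraries were spread over a wider range, lying on both sides of the 5 controls, and the log2 fold change was 0.0046 ± 0.13 (95% interval −0.27 to 0.28). At 10 months it had 22.5, 23.9, 14.3, 25.2 and 23 CPM in KI, against 20.9, 25.5, 27.1, 24.9 and 21.9 CPM in control. The library labelled KI replicate 5 was again the lowest, below every other library of the series, and the groups overlapped. The log2 fold change at 10 months was −0.14 ± 0.13 (adjusted p = 0.849) with all libraries and −0.026 ± 0.11 without that one. With age Fezf2 differed by −0.23 ± 0.13 in KI and −0.081 ± 0.13 in control, and by −0.11 ± 0.11 in KI without that library.

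Bcl11b (ENSMUSG00000048251, chr12:107910403-108003602), also known as CTIP2, a zinc finger factor of layer 5 neurons with subcerebral axons and of striatal projection neurons, was the member with the smallest unadjusted p in both genotype and both age comparisons. At 3 months it had 67.7, 60.6, 61.4, 58.7 and 62.7 CPM in KI, against 72.3, 62.7, 70.0, 75.0 and 67.7 CPM in control. At 10 months it had 52.7, 52.0, 65.2, 45.1 and 53.8 CPM in KI, against 66.4, 55.2, 66.0, 61.5 and 60.6 CPM in control. At each age 4 of 5 KI libraries were below all 5 controls and 1 was among them, at 10 months the library labelled replicate 5. At 3 months the highest of the 4, KI replicate 7, equalled the lowest control to the decimal given. In KI, 4 of 5 libraries of 10 months were below all 5 of 3 months, and in control 3 of 5 were.

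The group means of Bcl11b were 62.2 ± 3.39 CPM in KI and 69.5 ± 4.67 CPM in control at 3 months, and 53.8 ± 7.26 CPM in KI and 61.9 ± 4.59 CPM in control at 10 months (SD, n = 5 each). The log2 fold change of KI over control was −0.16 ± 0.079 at 3 months (95% interval −0.33 to 0.0041, adjusted p = 1.00) and −0.20 ± 0.080 at 10 months (95% interval −0.37 to −0.039, adjusted p = 0.523). For 10 against 3 months it was −0.21 ± 0.080 in KI (adjusted p = 0.119) and −0.17 ± 0.079 in control (adjusted p = 0.361). Without the library labelled KI replicate 5 at 10 months, Bcl11b was lower at 10 than at 3 months in KI, at −0.29 ± 0.070 (adjusted p = 0.0128), and the genotype value at 10 months was −0.28 ± 0.070 (adjusted p = 0.180). Without KI replicate 6 at 10 months, the library of lowest Bcl11b, the values were −0.15 for age in KI and −0.15 for genotype. With the thalamic score as a covariate the value for age in KI was −0.22 ± 0.14 (adjusted p = 0.670). The 2-sided exact permutation p of mean CPM was 0.0159 for genotype at 3 months, 0.0794 for genotype at 10 months, 0.0397 for age in KI and 0.0318 for age in control. Adjusted over the 32 such tests of the members, each was 0.413. With plain library totals in place of TMM scaling, these p were 0.0238, 0.0873, 0.103 and 0.0476 in the same order by exact permutation, 3 instead of 4 KI libraries were below all controls at 3 months, and 1 KI library of 10 months was above all 5 of 3 months. These comparisons share libraries in pairs and are not independent of each other. The interaction was −0.043 ± 0.11 (95% interval −0.28 to 0.19).

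Markers of striatal projection neurons moved with Bcl11b from library to library. Of 19 tested genes in that list, which include the dopamine receptors Drd1 and Drd2 and the adenosine receptor Adora2a, none was called by edgeR or DESeq2 in any comparison. With limma-voom 3 were called lower for age in KI and 2 lower for age in control, beside 3027 and 1254 of all genes called in either direction. In each comparison 1 or 2 of the list had an unadjusted p under 0.05, beside 745 to 4165 of all 19623 genes. The list's median log2 fold change was −0.11 for genotype at 3 months and −0.092 at 10 months, and −0.15 for age in KI and −0.23 in control. Their summed level was 866 to 950.4 CPM in KI and 847 to 1156 CPM in control at 3 months, and 627 to 1051 CPM in KI and 712 to 1033 CPM in control at 10 months. None of the 3 receptors was at 0 in any library. KI replicate 6 at 10 months had both the lowest Bcl11b, at 45.1 CPM, and the lowest Drd2 and Adora2a, at 0.711 and 0.948 CPM. With group means removed, Pearson's r was 0.78 (permutation p = 0.00240, adjusted 0.0244) and Spearman's rho 0.64 (permutation p = 0.00650, adjusted 0.0607) over the 20 libraries between log2 Bcl11b and the mean log2 level of the list, adjusted over 112 relations of members with lists. Without the 2 libraries farthest from the Bcl11b median r was 0.68, and without KI replicate 3 at 3 months and replicate 5 at 10 months it was 0.86 (permutation p = 0.0001, 18 libraries). With the striatal score as a covariate, the log2 fold change of Bcl11b was −0.13 ± 0.060 and −0.15 ± 0.061 for genotype at 3 and 10 months, and −0.12 ± 0.064 and −0.092 ± 0.062 for age in KI and in control. The part of striatal RNA in the Bcl11b differences was not tested.

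**Figure D3:**
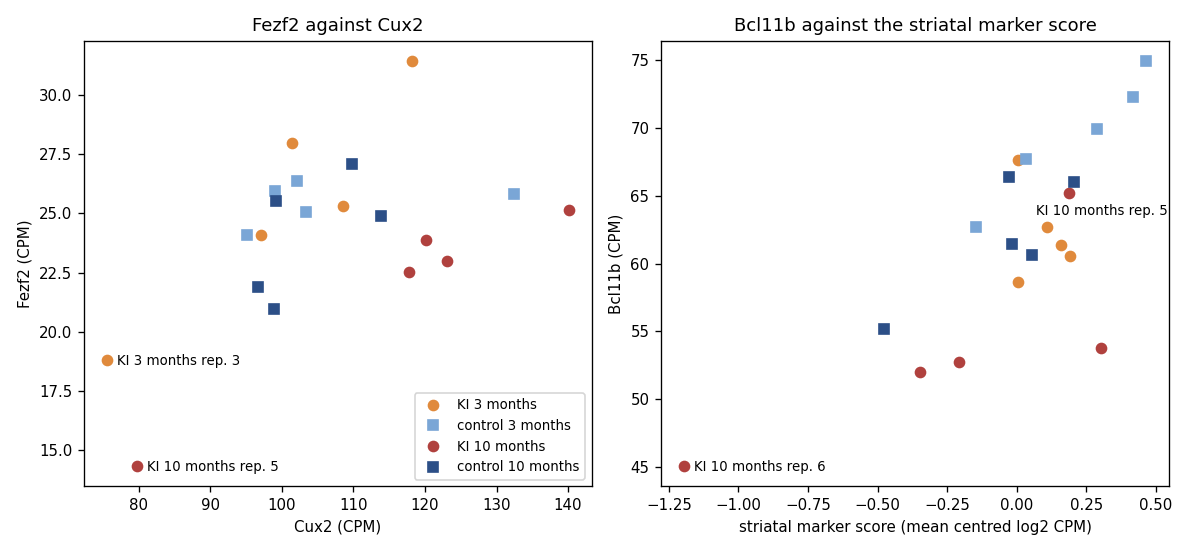
Left, Fezf2 against Cux2 in CPM for the 20 libraries, with both KI libraries of low excitatory neuron score labelled at the lower left. Right, Bcl11b in CPM against the score of striatal markers (mean over genes of log2 CPM centred per gene), where KI replicate 6 at 10 months has the lowest value on both axes; circles are KI and squares control.

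None of the 3 layer 6 genes passed the test in any comparison. Foxp2 (ENSMUSG00000029563, chr6:14901349-15441977), a forkhead factor, ranged over 16.4 to 24.1 CPM in KI and 14.3 to 21.8 CPM in control at 3 months, and over 15.7 to 21.1 CPM in KI and 12.5 to 19.3 CPM in control at 10 months. Its log2 fold change was 0.056 ± 0.13 and 0.16 ± 0.13 for genotype at 3 and 10 months, and −0.11 ± 0.13 and −0.21 ± 0.13 for age in KI and control, the smallest adjusted p of the 4 being 0.572. Its highest value was in KI replicate 3 at 3 months, without which the difference at 3 months was −0.038 ± 0.13.

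Tle4 (ENSMUSG00000024642, chr19:14448072-14598051), a co-repressor of the Groucho family found in neurons that project to the thalamus, varied least of the 8, with a biological coefficient of variation of 7.22% against 14.8% for Foxp2, the most variable. Tle4 averaged 67.0 ± 3.23 CPM in KI and 66.9 ± 3.52 CPM in control at 3 months, and 64.4 ± 4.97 CPM in KI and 63.1 ± 2.58 CPM in control at 10 months. Its 95% interval for KI over control was −0.12 to 0.12 at 3 months and −0.092 to 0.15 at 10 months on the log2 scale, the narrowest of the 8. For age the interval was −0.18 to 0.066 in KI and −0.21 to 0.037 in control. Tbr1 (ENSMUSG00000035033, chr2:61802930-61814114), a T-box factor of layer 6, averaged 122 ± 8.12 CPM in KI and 126 ± 9.80 CPM in control at 3 months, and 133 ± 10.1 CPM in KI and 124 ± 13.2 CPM in control at 10 months. Its log2 fold change was −0.048 ± 0.075 and 0.098 ± 0.075 for genotype at 3 and 10 months, and 0.12 ± 0.075 and −0.023 ± 0.075 for age in KI and in control. None of these passed the test (smallest adjusted p = 0.374).

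The balance of upper to deep layers was summarised per library as the mean log2 CPM of Cux1 and Cux2 minus that of the 5 genes of layers 5 and 6, with no test. At 10 months it was 1.38, 1.34, 0.99, 1.58 and 1.39 in KI libraries, against 1.11, 1.23, 1.23, 1.24 and 1.12 in control. The KI libraries were higher in 4 of 5 and the fifth, the library labelled replicate 5, was below all controls. At 3 months it was 0.81, 1.11, 1.18, 1.22 and 1.00 in KI, against 1.06, 1.45, 1.08, 1.05 and 1.03 in control, with wide overlap. The means were 1.06 ± 0.17 in KI and 1.13 ± 0.18 in control at 3 months. At 10 months they were 1.34 ± 0.21 in KI and 1.19 ± 0.067 in control, with SDs over 5 libraries. Leaving out Bcl11b and Foxp2, which the striatum also expresses, the difference of KI minus control was 0.15 at 10 months, against 0.15 with them. Without the 2 genes the library labelled KI replicate 5 was among the controls, at 0.87, where the controls ran from 0.80 to 0.88, and the other 4 KI libraries were above all of them. The upper side of this summary is Cux1 and Cux2 alone, and 17 other upper layer genes, examined further on, did not share its direction. Their median log2 fold change of KI over control at 10 months was −0.029, with 8 of 17 above 0. The medians were 0.0088 for the other layer 5 and 0.063 for the other layer 6 genes. The score of the 17 genes ran from −0.235 to −0.018 in KI and from −0.108 to 0.045 in control at 10 months.

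Between libraries of a group, the markers did not vary as 1 block. With group means removed, 9 of 28 pairs of members had an adjusted p under 0.05 for Pearson's r over the 20 libraries (100000 permutations within groups, adjusted over the 28 pairs), 5 of them positive and 4 negative. Among the member pairs, those of the same layer were not the most alike. Rorb of layer 4 varied with Tbr1 of layer 6: Pearson's r was 0.86 (permutation p = 7e-05, adjusted 0.00098) and Spearman's rho 0.82 (permutation p = 0.00017, adjusted 0.00238). Without the 2 libraries farthest from the Rorb median r was 0.79, and without both KI libraries of low excitatory neuron score it was 0.84 (permutation p = 0.00129, 18 libraries).

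Cux2 of the upper layers varied with Fezf2 of layer 5: Pearson's r was 0.86 (permutation p = 0.00019, adjusted 0.00177) and Spearman's rho 0.71 (permutation p = 0.00148, adjusted 0.0138). The 2 libraries farthest from the Cux2 median were the same 2 KI libraries, and without them r was 0.53 (permutation p = 0.0136, 18 libraries), so much of the relation rests on them. Foxp2 ran against both. For Fezf2 and Foxp2, Pearson's r was −0.74 (permutation p = 4e-05, adjusted 0.00098) and Spearman's rho −0.77 (permutation p = 5e-05, adjusted 0.00140), and r was −0.69 (permutation p = 0.00143, 18 libraries) without those libraries. For Cux2 and Foxp2, Pearson's r was −0.71 (permutation p = 0.00105, adjusted 0.00588) and Spearman's rho −0.69 (permutation p = 0.00252, adjusted 0.0141), and r was −0.57 (permutation p = 0.0346, 18 libraries) without them.

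Bcl11b varied with Foxp2 of layer 6 and, with all libraries, against Fezf2, its fellow layer 5 gene. For Bcl11b and Foxp2, Pearson's r was 0.72 (permutation p = 0.00045, adjusted 0.00315) and Spearman's rho 0.69 (permutation p = 0.00218, adjusted 0.0141), with r at 0.74 when the 2 libraries farthest from the Bcl11b median were left out and at 0.64 (permutation p = 0.0162, 18 libraries) without both KI libraries. For Fezf2 and Bcl11b, Pearson's r was −0.72 (permutation p = 0.00259, adjusted 0.0104) and Spearman's rho −0.54 (permutation p = 0.0223, adjusted 0.0892), but r was −0.36 (permutation p = 0.138, 18 libraries) without those 2 libraries, so that the relation rests on them. For Cux2 and Bcl11b r was −0.76 (permutation p = 0.00145, adjusted 0.00677) and rho −0.57 (permutation p = 0.0156, adjusted 0.0728), and r was −0.52 (permutation p = 0.0405, 18 libraries) without them. The other 2 pairs, Cux1 with Tbr1 and Tle4 with Tbr1, had r of 0.55 and 0.57 with adjusted permutation p of 0.0427 and 0.0442, and r of 0.36 and 0.41 without the 2 libraries farthest from the median of the first gene. Their rho was 0.52 and 0.51, with adjusted permutation p of 0.0987 and 0.119.

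**Figure D4:**
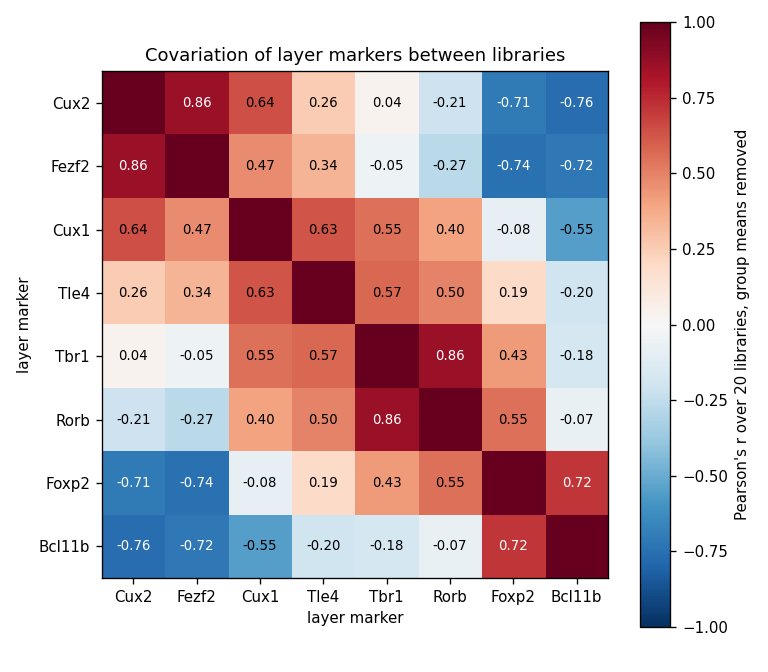
Pearson's r between each pair of layer markers over the 20 libraries after the group means were removed (colour scale from −1 to 1, values printed in the cells). Cux2 with Fezf2 and Rorb with Tbr1 stand out at 0.86, and Foxp2 and Bcl11b are at −0.71 to −0.76 with Cux2 and Fezf2.

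Set against the levels of gene lists, Cux2 and Fezf2 were the members that followed the cortex's excitatory neuron genes. For the list of 15 excitatory neuron genes r was 0.85 (rho 0.80, permutation p = 7e-05 and 8e-05, adjusted 0.00560 and 0.00448, r = 0.67 without the 2 farthest libraries and 0.67 without both low KI libraries, permutation p = 0.00355) with Cux2 and 0.87 (rho 0.80, permutation p = 0.00015 and 0.00034, adjusted 0.00560 and 0.00952, r = 0.70 without the 2 farthest libraries and 0.70 without both low KI libraries, permutation p = 0.0116) with Fezf2. Foxp2 ran the other way, with r of −0.67 (rho −0.70, permutation p = 0.00261 and 0.00232, adjusted 0.0244 and 0.0274, r = −0.50 without the 2 farthest libraries and −0.46 without both low KI libraries, permutation p = 0.0890), so that its relation was not detectable without those KI libraries. Rorb and Tbr1 were not detectably related to that list (r = −0.29 and 0.010, permutation p = 0.263 and 0.965) but were low where genes of cortical interneurons were high. For that list r was −0.71 (rho −0.73, permutation p = 0.00076 and 0.00101, adjusted 0.0151 and 0.0226, r = −0.68 without the 2 farthest libraries and −0.59 without both low KI libraries, permutation p = 0.0166) with Rorb and −0.68 (rho −0.69, permutation p = 0.00148 and 0.00188, adjusted 0.0207 and 0.0274, r = −0.71 without the 2 farthest libraries and −0.55 without both low KI libraries, permutation p = 0.0511) with Tbr1, the relation of Tbr1 just missing 0.05 without those KI libraries. Rorb, which the thalamus also expresses, had r of 0.051 and rho of −0.026 with the thalamic list (permutation p = 0.840 and 0.924). In all, 12 of 112 relations of members with lists had an adjusted p under 0.05 for r.

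Set against lists of the layers themselves, 4 members had an adjusted p under 0.05 with the other upper layer genes and none with the other layer 5 or layer 6 genes. Cux2, of the same layers, had r of 0.84 and rho of 0.81 (permutation p = 0.00012 and 6e-05, adjusted 0.00560 and 0.00448), with r at 0.67 without the 2 farthest and 0.67 without both low KI libraries. Cux1, also of those layers, was not among the 4, with r of 0.56 and rho of 0.45 (adjusted permutation p = 0.279 and 0.313). Its r was 0.22 without the 2 farthest and 0.23 without both low KI libraries. Fezf2 of layer 5 had r of 0.84 and rho of 0.72 (permutation p = 0.0002 and 0.00138, adjusted 0.00560 and 0.0258), with r at 0.70 without the 2 farthest and 0.70 without both low KI libraries, while with the other layer 5 genes its r was 0.16 (permutation p = 0.522). Bcl11b and Foxp2 were low where the upper layer genes were high. Bcl11b had r of −0.72 and rho of −0.65 (permutation p = 0.00167 and 0.00485, adjusted 0.0208 and 0.0494), with r at −0.61 without the 2 farthest and −0.46 without both low KI libraries. Foxp2 had r of −0.67 and rho of −0.66 (permutation p = 0.00127 and 0.00223, adjusted 0.0203 and 0.0274), with r at −0.54 without the 2 farthest and −0.54 without both low KI libraries. With the 6 genes of claustrum and subplate-like neurons, Fezf2 had r of −0.74 and rho of −0.74 (permutation p = 0.00191 and 0.00029, adjusted 0.0214 and 0.00952), with r at −0.64 without the 2 farthest and −0.64 without both low KI libraries. For Foxp2 and the same list r was 0.68 and rho 0.69 (permutation p = 0.00081 and 0.00245, adjusted 0.0151 and 0.0274), with r at 0.57 without the 2 farthest and 0.56 without both low KI libraries.

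For each member, the 3 genes whose level between libraries was most like it were taken from 13860 other genes of at least 1 CPM, predicted genes of the Gm and Rik series left out, by the same r over the 20 libraries and as a description with no test. For Cux1 they were Asap1 (r = 0.94), Kansl1 (0.92) and Scn8a (0.92), and for Cux2 Rap1gap2 (r = 0.94), Zfyve28 (0.94) and Epha8 (0.93). Rorb was followed most closely by AI593442 (r = 0.96), Krt222 (0.92) and Cdk19 (0.92). For Fezf2 the likest genes were Pigz (r = 0.96), Crhr1 (0.96) and Polg (0.95), the second being the receptor of corticotropin-releasing hormone. Bcl11b was matched by Klhl1 (r = 0.91), Lmo3 (0.88) and Meis1 (0.88), of which Meis1 encodes a homeodomain factor. Those of Foxp2 were Adam9 (r = 0.91), Pde7b (0.91) and Mctp1 (0.90), those of Tle4 were Cyfip2 (r = 0.82), Btn2a2 (0.81) and Mtus2 (0.80), and those of Tbr1 were Mat2b (r = 0.89), Osbpl1a (0.87) and Pak7 (0.86). Tle4, the member that varied least, had the lowest r with its likest gene. Without both KI libraries of low excitatory neuron score these values were lower, at 0.60 for Cyfip2, 0.73 for Btn2a2 and 0.60 for Mtus2 with Tle4, and between 0.79 and 0.95 for the likest genes of the other members, the lowest being Epha8 with Cux2 and Lmo3 with Bcl11b.

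Other genes of the same layers were examined as lists, and here age in KI gave calls. For that comparison edgeR called 2.41% of all genes tested lower and 5.66% higher. Of 17 other upper layer genes, 3 were lower at 10 than at 3 months in KI and 0 higher. Mdga1 averaged 22.1 ± 1.51 CPM in KI at 10 months and 33.3 ± 3.70 CPM in KI at 3 months (SD, n = 5 each), a log2 fold change of −0.59 ± 0.11 (adjusted p = 0.00144). Otof, which encodes otoferlin, averaged 38.1 ± 7.28 CPM, against 56.9 ± 7.39 CPM (−0.58 ± 0.12, adjusted p = 0.00470), and Cdh24, a cadherin gene, 5.02 ± 1.16 CPM, against 7.47 ± 1.52 CPM (−0.57 ± 0.16, adjusted p = 0.0323). The list's median was −0.076, while Cux1 and Cux2 were above 0 in the same comparison. Of 20 other layer 5 genes, 1 was lower, Slco2a1, a prostaglandin transporter gene, at 1.34 ± 0.294 CPM, against 2.37 ± 0.374 CPM (−0.82 ± 0.19, adjusted p = 0.00929).

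Of 21 other layer 6 and 6b genes, 3 were lower and 1 higher at 10 months in KI, beside 2.41% of all genes lower and 5.66% higher. The orphan nuclear receptor gene Nr4a2 averaged 50.1 ± 4.17 CPM in KI at 10 months and 70.4 ± 7.64 CPM in KI at 3 months (−0.49 ± 0.082, adjusted p = 0.000356). Moxd1 averaged 9.91 ± 2.51 CPM, against 13.8 ± 2.00 CPM (−0.48 ± 0.14, adjusted p = 0.0433), and Tmem163 13.2 ± 1.53 CPM, against 16.3 ± 0.982 CPM (−0.31 ± 0.088, adjusted p = 0.0334). The predicted gene Gm11549 averaged 58.7 ± 8.41 CPM, against 46.8 ± 2.38 CPM (0.33 ± 0.092, adjusted p = 0.0305). Of the 15 excitatory neuron genes 0 were called by edgeR for age in KI. An unadjusted p under 0.05 was found for 1 of them, beside 4165 of all 19623 genes. DESeq2 called 1 of the 15 lower and limma-voom 1. Of 14 thalamic markers, 11 were lower at 10 months in KI, with a median of −0.92. With their score as a covariate 0 upper layer, 0 layer 5 and 1 layer 6 gene were called, beside 274 of all genes. As that score did not overlap between KI libraries of 3 and of 10 months, this fit cannot tell age and thalamic RNA apart. Without the library labelled KI replicate 5 at 10 months, 2 upper layer genes, 1 layer 5 gene and 2 layer 6 genes were lower and 1 layer 6 gene higher, beside 1551 of all genes called.

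In control, none of the 3 layer lists had a called gene for age by edgeR, with 1 of 17, 0 of 20 and 4 of 21 at an unadjusted p under 0.05. Of all 19623 genes tested, 2662 had such an unadjusted p in that comparison. DESeq2 called 1 layer 6 gene lower there, and limma-voom 1 upper layer and 1 layer 6 gene lower. The smallest p in each list belonged to Mdga1, at a log2 fold change of −0.32 ± 0.11 (adjusted p = 0.135), and Pou3f3 (−0.12 ± 0.059), to Etv1 (−0.20 ± 0.10) and Bcl6 (−0.13 ± 0.099), and to Tmem163 (−0.28 ± 0.088, adjusted p = 0.0842) and Nr4a2 (−0.20 ± 0.081, adjusted p = 0.242). The age change in KI minus that in control was −0.27 ± 0.16 for Mdga1, −0.024 ± 0.12 for Tmem163 and −0.29 ± 0.12 for Nr4a2, and no gene of the 3 lists passed that test, so the age changes were not shown to differ between genotypes.

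Between KI and control none of the 3 layer lists had a call by edgeR or DESeq2 at either age, and limma-voom called 1 layer 6 gene higher and 1 lower at 10 months. Those with an unadjusted p under 0.05 were 0 of 17, 3 of 20 and 0 of 21 at 3 months and 3 of 17, 2 of 20 and 5 of 21 at 10 months. Over all 19623 genes tested, 745 had such an unadjusted p at 3 months and 1543 at 10 months. The smallest p in the upper layer list at 10 months belonged to Mdga1 (−0.40 ± 0.11, adjusted p = 0.332) and Otof (−0.37 ± 0.12, adjusted p = 0.439), in the layer 5 list to Chrna6, a nicotinic receptor subunit gene (0.59 ± 0.16, adjusted p = 0.297), and Pcp4 (0.18 ± 0.082, adjusted p = 0.621), and in the layer 6 list to Hs3st4 (0.19 ± 0.054, adjusted p = 0.372) and Moxd1 (−0.42 ± 0.14, adjusted p = 0.441). At 3 months those of the layer 5 list belonged to Chrna6 (0.69 ± 0.16) and Slco2a1 (0.49 ± 0.19), and those of the layer 6 list to Cplx3 (−0.23 ± 0.14) and Nxph4 (−0.30 ± 0.18). The adjusted p was 0.518 for Chrna6 and 1.00 for the other 3. For Chrna6 the value was above 0 at both ages without passing the test. The 15 excitatory neuron genes had no call between KI and control by edgeR, DESeq2 or limma-voom and 0 at an unadjusted p under 0.05 at either age, the smallest p belonging to Camk2a (−0.084 ± 0.074) and Chrm1 (−0.10 ± 0.090) at 3 months and to Lmo4 (0.14 ± 0.068) and Neurod1 (−0.18 ± 0.11) at 10 months.

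**Figure D5:**
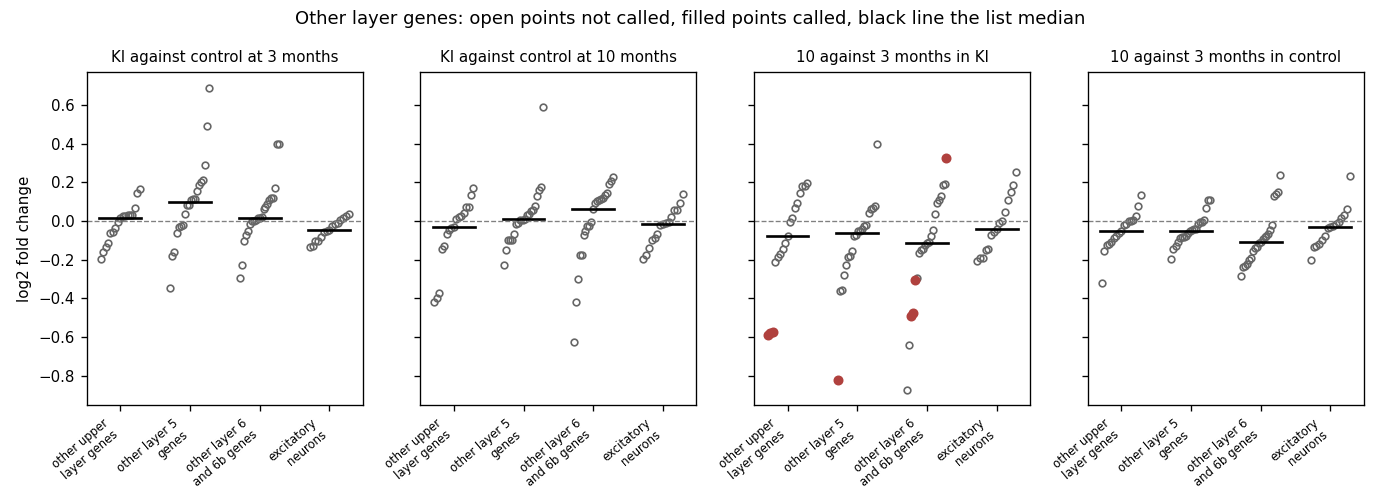
Log2 fold change (y axis) of each gene of 4 other lists (x axis) in 4 comparisons (panels); open points did not pass the test, filled points did, and the black line is the list median. The filled points are all in the panel for 10 against 3 months in KI, where 7 lie below 0 and 1 above.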

How the data were processed

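RNA of mouse cortex (TRIzol, RNeasy columns with DNase) was sequenced on an Illumina instrument, per the labels' protocols. The authors deposited raw read counts by gene in a single table of the 20 libraries, which also lists gene lengths. The build is mm10, per the submitters' processing notes. Aligner, counter, annotation and strand setting are not given in the sources used here, so reads of overlapping genes may be shared. Columns were matched to libraries by name, and no column was left out. From the counts, edgeR 4.0.16 (R 4.3.3) was used with TMM factors (0.972 to 1.03), filterByExpr and a robust quasi-likelihood fit of 4 group means over 20 libraries (16 residual degrees of freedom), tested on simulated data first, with Benjamini-Hochberg adjustment over the 19623 genes tested. A gene was called at an adjusted p under 0.05. Log2 fold changes come from that fit, with their SE. DESeq2 1.42.0, limma 3.58.1 (limma-voom with quality weights) and sva 3.50.0 were alternatives, besides other filters, scaling, covariates and leaving out libraries. Correlations used log2 CPM with a prior count of 2, group means removed. List scores are means of centred log2 CPM. Single members were also compared by 2-sided exact permutation tests. All members are named in every comparison. From other lists the called genes are named or, where none was, those with the 2 smallest p, except that the upper layer genes at 3 months are not reported here by name. The members and lists were chosen with earlier results of these data known. Promoter sequences are RefSeq's, GRCm38.p6.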

Additional observations from a re-analysis of the deposited data

Results flagged for a closer look

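In the group of control libraries at 3 months, Cux2 had 1 library far above the others: replicate 7 had 132 CPM (132.473), and the nearest of the other 4 had 103.3. Its distance to that neighbour was 0.780 of the group's whole range, beyond the critical value of 0.71 for 5 libraries (Dixon's test at 95%). In KI at 10 months, Fezf2 had 1 library far below the others: the library labelled replicate 5 had 14.3 CPM (14.3214), and the nearest had 22.5, a distance of 0.757 of the range. That is the library whose Xist and Ddx3y counts go against its label. In all, 32 groups of member values were looked at and 2 met the criterion, where chance gives about 1 in 20.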

How the results depend on the processing

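The members' log2 fold changes kept their direction and their side of the threshold in 1280 of 1352 recalculations, over 34 settings, while 63 changed sign, none of them passing the test, and 9 passed the test where the reported value did not. Many of these could hardly differ, so the count is no measure of robustness. The threshold of 0.10 keeps every log2 fold change, the pseudogene's counts alter those of Cux2 alone among members, and many fits leave out a library outside the compared groups. RLE scaling, the absence of a low-count filter, a threshold of 0.10 and adding the pseudogene's counts to Cux2 changed no member's call. For age in KI 2 members were called by limma-voom (Cux1, adjusted p = 0.0486, and Bcl11b, 0.0114), 2 with 1 surrogate variable (Fezf2, 0.0152, and Bcl11b, 0.0353), 2 without both KI libraries of low excitatory neuron score (Cux1, 0.0420, and Bcl11b, 0.0231), and 0 to 2 with each library left out in turn, the 2 being without the library labelled KI replicate 5 at 10 months. For age in control 1 member, Bcl11b, was called by limma-voom (adjusted p = 0.0369). Over all genes, the 5 calls for genotype at 3 months became 12 with DESeq2, 12 with limma-voom and 9 with 1 surrogate variable, and 4 to 5 with libraries left out. The 12 calls at 10 months became 58 with DESeq2, 75 with limma-voom, 77 with 1 surrogate variable, 7 when the 10 compared libraries alone were fitted, 7 when scaled to the excitatory neuron genes and 7 to 14 with libraries left out. The 1582 calls for age in KI became 3027 with limma-voom, 4111 with 1 surrogate variable, 958 with the compared libraries alone, 274 with the thalamic covariate and 1117 to 1670 with libraries left out. Over all 34 settings, including the fit without both KI libraries of low excitatory neuron score, these calls ran from 274 to 4111. The 799 for age in control became 1254, 1962 and 509 with limma-voom, 1 surrogate variable and the thalamic covariate, and 633 to 913 with libraries left out. For the interaction DESeq2 called 4 genes and limma-voom 3, against 0. The log2 fold changes below or above 0 against the reported sign were these. With a minimum mean of 1 CPM they were Fezf2 −0.00061 and Tle4 −0.0060 for genotype at 3 months. With limma-voom they were Cux2 0.026, Rorb −0.00033, Foxp2 −0.046 and Tle4 −0.040 for genotype at 3 months. With 1 surrogate variable they were Foxp2 −0.00079 for genotype at 3 months. With the striatal score as a covariate they were Fezf2 −0.021 and Tle4 −0.0060 for genotype at 3 months, and Foxp2 0.0014 for age in KI. With the thalamic score as a covariate they were Cux2 0.017, Tle4 −0.0053 and Tbr1 0.00061 for genotype at 3 months. With libraries scaled to the excitatory neuron genes they were Tbr1 0.027 for genotype at 3 months, and Cux2 0.0027, Rorb 0.026 and Tbr1 0.022 for age in control, and Rorb −0.0033 and Tle4 −0.0098 for the interaction. Without both KI libraries of low excitatory neuron score (chosen after seeing the data) they were Cux2 0.00047, Rorb −0.0034, Foxp2 −0.038 and Tle4 −0.022 for genotype at 3 months, and Tle4 0.0084 for age in KI. Leaving out 1 library gave ranges that crossed 0 for Cux2 −0.15 to 0.0086, Rorb −0.0033 to 0.13, Fezf2 −0.081 to 0.099, Foxp2 −0.038 to 0.13, Tle4 −0.024 to 0.028 for genotype at 3 months, and Tle4 −0.0051 to 0.072 for genotype at 10 months, and Rorb −0.015 to 0.11 for age in KI, and Cux2 −0.081 to 0.053, Rorb −0.10 to 0.038, Tbr1 −0.078 to 0.020 for age in control, and Rorb −0.0044 to 0.13, Bcl11b −0.12 to 0.015, Tle4 −0.0075 to 0.071 for the interaction. Samples that share a replicate number did not deviate together: of 18 pairs 3 correlated above 0.1 (range −0.34 to 0.28), so the numbers were not taken to pair libraries. With the replicate number as a block, no member was called in any comparison, the calls over all genes at 10 months were 4, and the changes of sign were Cux2 0.029, Rorb −0.013 and Foxp2 −0.0085 for genotype at 3 months, and Fezf2 0.062 for genotype at 10 months. KI libraries are numbered 3 to 7 and control libraries 6 to 10, so with this block the genotype comparisons rest on the shared numbers 6 and 7. The cause of these differences was not tested. The lowest count of a member in any library was 546, so the number of libraries limits precision more than depth. With 5 libraries a group the exact permutation test cannot go below 0.0079.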

Other observations

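Genes of other cell types gave these values in the same libraries. Over all genes tested, edgeR called 5.66% higher and 2.41% lower for age in KI, and 3.72% higher and 0.357% lower in control. An unadjusted p under 0.05 was reached by 4165 of 19623 genes for age in KI and 2662 for age in control. For genotype it was reached by 745 at 3 months and 1543 at 10 months. Of 18 genes of cortical interneurons, 3 were lower at 10 than at 3 months in KI by edgeR: Ndnf (−0.50 ± 0.11 on the log2 scale, adjusted p = 0.00413), Reln (−0.45 ± 0.11, adjusted p = 0.0101) and Gad1, which encodes an enzyme of GABA synthesis (−0.23 ± 0.060, adjusted p = 0.0184). Of the same list 0 were called by edgeR between KI and control or for age in control, with 0, 0 and 5 at an unadjusted p under 0.05, and DESeq2 called 1 and limma-voom 2 lower for age in control. In a list of 16 genes that microglia raise around plaques, 15 were higher at 10 months in KI, with a median log2 fold change of 2.68, and 14 in control, with a median of 2.13. For genotype 0 of these 16 were called by edgeR at either age, with 1 at 3 months and 11 at 10 months at an unadjusted p under 0.05, while DESeq2 called 1 and limma-voom 2 higher at 10 months. Of 10 microglial genes, 8 were higher with age in each genotype, with medians of 0.98 in KI and 0.94 in control. Of 10 astrocyte genes, 2 were higher with age in each genotype, and of 10 oligodendrocyte genes and 11 hippocampal genes 0 were called by edgeR in any comparison. Of each of these 2 lists 0 to 1 had an unadjusted p under 0.05 in a comparison. Of the oligodendrocyte list neither DESeq2 nor limma-voom called any, and of the hippocampal list 1 was called lower by each for age in KI. Of 6 claustrum genes 1, Nr4a2, which the layer 6 list also holds, was lower with age in KI.

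The 12 choroid plexus genes lay on 1 side of 0 without a call by any of the 3 tools and with 0 at an unadjusted p under 0.05: all 12 were above 0 for KI against control at 3 months, with a median of 0.91, and all 12 below 0 at 10 months, with a median of −0.88. Of 14 thalamic genes, all 14 were above 0 for KI against control at 3 months, with a median of 0.42, 0 called by edgeR, DESeq2 or limma-voom and 8 at an unadjusted p under 0.05.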
